A study of Rattus norvegicus with 10 samples.

Results

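The genes described here make, sense, move, export and break down cholesterol, or make and desaturate fatty acids. They are 41 genes chosen by name for these functions, and all 41 have a row among the 14354 genes of the deposited count table. The RNA came from primary hippocampal cultures that hold both neurons and glia, prepared from Sprague-Dawley rats at embryonic day 18 and kept in Neurobasal medium with B27 supplement. There were 5 libraries from cultures given 1 µM tetrodotoxin (TTX), a toxin that blocks voltage-gated sodium channels and so stops action potentials, and 5 from cultures given vehicle, which the titles call Con. Both treatments began at 19 days in vitro and lasted 24 h, to 20 days in vitro, and the labels name no genetic change in either. The labels do not say whether the 5 libraries of a group came from separate dishes or litters, so every p-value here measures only the spread between these libraries, which may be technical.

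Cholesterol does not cross from blood into brain in useful amounts, so neural cells make their own. Acetyl-CoA is built into mevalonate and farnesyl diphosphate, a pair of these is joined into squalene, and squalene is closed into lanosterol and trimmed to cholesterol. The transcription factor SREBP2 switches on these enzymes when the membrane of the endoplasmic reticulum is short of sterol: its escort Scap then carries it away for cleavage, and the Insig proteins hold it back when sterol is plentiful. Liver X receptors do the reverse job, answering to oxidised sterols by switching on the exporters Abca1 and Abcg1 and the fatty acid regulator Srebf1. In brain, astrocytes are known for making cholesterol and loading it on apolipoprotein E particles, and neurons for turning its excess into a hydroxylated form through Cyp46a1.

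The count table held 58785925 to 84921962 counts per TTX library and 52254261 to 77757538 per vehicle library. Levels are given as CPM, counts relative to library size, scaled between libraries with edgeR's TMM factors, or as the authors' FPKM where different genes are set side by side, since FPKM takes account of transcript length. A gene was called when edgeR's quasi-likelihood test gave a Benjamini-Hochberg adjusted p under 0.05 over all 13088 genes tested, and all 41 lipid genes were tested. TTX replicate 5 stood apart from the other TTX libraries on the second principal component, and without it 27 lipid genes were lower and 9 higher, against 27 and 10 with it. Neuron and astrocyte markers were well detected: Nefl, a neurofilament, averaged 806 ± 30.0 CPM with TTX and 774 ± 48.5 CPM with vehicle, and Gfap, an astrocyte filament, 9702 ± 198 CPM with TTX and 5364 ± 511 CPM with vehicle (SD, n = 5 in each group).

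With activity blocked, transcripts of the cholesterol pathway were lower at nearly every step, the desaturases Fads1 and Fads2 were lower, and the exporters Abca1 and Abcg1 were higher. Of the 41 genes 27 fell, 10 rose and 4 (Tm7sf2, Sc5d, Cyp46a1 and Acly) did not pass. That is 90.2% called, where 70.5% of all genes tested were called. The excess lay on one side, since 65.9% of the lipid genes were lower, against 35.0% of all genes tested, and 24.4% were higher, against 35.4%. The median log2 fold change (TTX over vehicle) was -0.25 in the lipid genes and 0.0065 in all genes tested. The median size of the change, whatever its direction, was 0.37 in the lipid genes and 0.27 in all genes tested. The TTX and vehicle ranges did not overlap in 32 lipid genes (78.0%), against 57.3% of all genes tested (29.1% with TTX lower and 28.2% with TTX higher). Tested against a 1.5-fold change with edgeR's glmTreat, 6 lipid genes were lower (Stard4, Hsd17b7, Fads2, Mvd, Insig2 and Fads1) and 1, Abcg1, was higher. That is 17.1% of the lipid genes, against 13.8% of all genes tested (8.44% lower and 5.35% higher), so large changes were about as common here as in the whole table. In bulk RNA, fewer cells of a type and less RNA per cell cannot be told apart, which holds for every difference below.

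**Figure D1:**
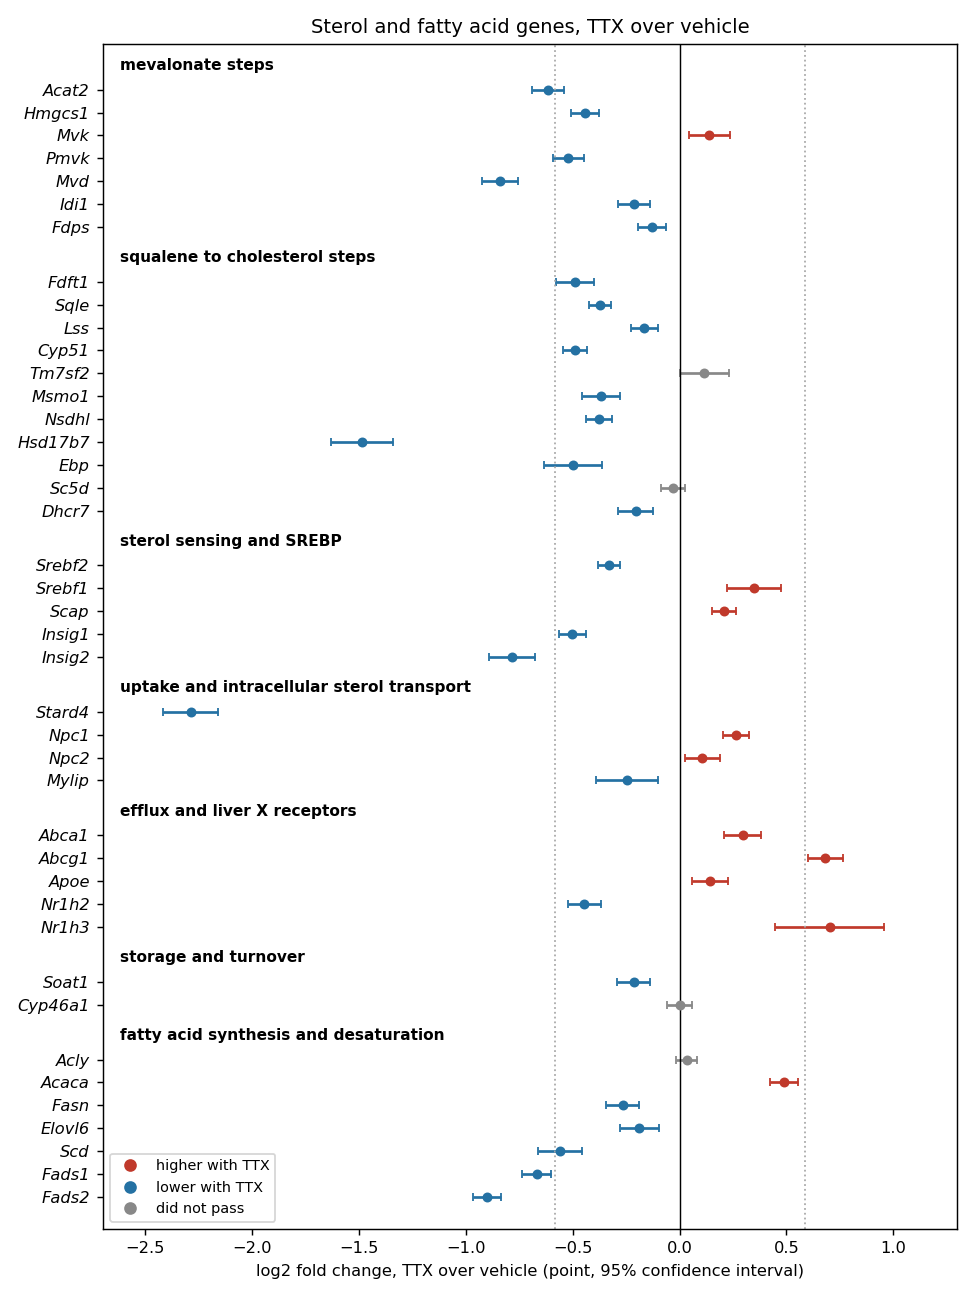
Log2 fold change (x axis, TTX over vehicle, 5 libraries in each group) of the 41 sterol and fatty acid genes, grouped by role (y axis). Points are edgeR estimates, bars 95% confidence intervals and dotted lines a 1.5-fold change. Most of the 18 sterol synthesis enzymes lie left of 0, Stard4 at -2.29 and Hsd17b7 at -1.49 are farthest left, and Abca1, Abcg1, Apoe and Nr1h3 lie to the right.

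The 18 enzymes of cholesterol synthesis supplied 15 of the 27 lower genes. Of these enzymes, 15 fell, 1 (Mvk) rose and 2 did not pass, so 83.3% were lower against 35.0% of all genes tested. Summed over the 18 enzymes, their level was 713 ± 7.67 FPKM with TTX and 911 ± 18.9 FPKM with vehicle (SD, n = 5 in each group), and the 5 TTX sums, from 704 to 725 FPKM, all lay below the 5 vehicle sums, from 883 to 936 FPKM. The sum weighs abundant enzymes most and is given as a description, without a test. Markers of dividing cells fell in the same libraries, with a summed level of 102 to 120.3 CPM over the TTX libraries and 300.0 to 384 CPM over the vehicle libraries, and their part in the enzyme decrease was not tested.

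In the first stretch, from acetyl-CoA to farnesyl diphosphate, 6 of 7 genes fell (85.7%, against 35.0% of all genes tested), with a median log2 fold change of -0.44. Hmgcs1, which makes the precursor HMG-CoA and was the most abundant enzyme of the pathway per length, was at 424, 415, 413, 406 and 429 CPM in the TTX libraries, against 559.9, 544, 549.9, 573 and 611 CPM in the vehicle libraries. All TTX libraries lay below all vehicle libraries (log2 fold change -0.44 ± 0.0312 SE, edgeR adjusted p = 1.03e-08). Mvd, which removes a carboxyl group to give the isoprene unit, was at 44.6, 46.4, 48.6, 44.6 and 49.6 CPM in the TTX libraries, against 83.8, 84.5, 81.8, 79.3 and 89.0 CPM in the vehicle libraries. The groups were far apart (log2 fold change -0.84 ± 0.0395 SE, edgeR adjusted p = 1.25e-10), and Mvd also passed the test against 1.5-fold (glmTreat adjusted p = 1.76e-05).

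Acat2, the thiolase of the entry step, was 1.53-fold lower with TTX, at 45.4 ± 1.67 CPM with TTX and 69.6 ± 2.55 CPM with vehicle (SD, n = 5 in each group; edgeR adjusted p = 1.14e-09). Pmvk, the later kinase of the pathway, was 1.43-fold lower, at 31.3 ± 1.06 CPM with TTX and 45.0 ± 0.853 CPM with vehicle (edgeR adjusted p = 4.37e-09). Idi1, the isomerase that follows Mvd, and Fdps, which makes farnesyl diphosphate, changed less, by log2 fold changes of -0.21 and -0.13 (edgeR adjusted p = 7.78e-05 and 0.00179), with no overlap between the groups in either gene. Mvk, the first kinase, went the other way and was at 28.5, 30.0, 27.2, 28.5 and 29.3 CPM in the TTX libraries, against 24.3, 24.6, 26.8, 26.8 and 27.7 CPM in the vehicle libraries. The ranges overlapped, and the rise was small (log2 fold change 0.14 ± 0.0449 SE, edgeR adjusted p = 0.0129), so the kinases on successive steps, Mvk and Pmvk, moved in opposite directions.

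Past farnesyl diphosphate, 9 of 11 genes fell (81.8%, against 35.0% of all genes tested), 0 rose and 2 did not pass, with a median of -0.37. Hsd17b7, the reductase that works on the keto group left when a methyl group is removed from the sterol ring, had the lowest fold change of these enzymes. It was at 7.09, 6.95, 5.53, 6.16 and 6.98 CPM in the TTX libraries, against 17.8, 18.3, 18.4, 18.9 and 18.3 CPM in the vehicle libraries. The highest TTX library was well below the lowest vehicle library (log2 fold change -1.49 ± 0.0678 SE, edgeR adjusted p = 8.97e-11), and 412 of the 13088 genes tested had a lower log2 fold change. It was also the least abundant enzyme of the pathway per length, at 3.76 ± 0.377 FPKM with TTX and 10.5 ± 0.227 FPKM with vehicle (SD, n = 5 in each group).

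Sqle, the epoxidase that commits squalene to sterols, was at 139.6, 140.3, 136, 139.5 and 139 CPM in the TTX libraries, against 186, 172, 177, 181 and 183 CPM in the vehicle libraries. The TTX libraries were tightly spaced and all below the vehicle libraries (log2 fold change -0.37 ± 0.0246 SE, edgeR adjusted p = 5.23e-09). Cyp51, which strips a methyl group from lanosterol, was 1.40-fold lower, at 219 ± 2.86 CPM with TTX and 308 ± 10.7 CPM with vehicle (SD, n = 5 in each group; edgeR adjusted p = 5.62e-10). Fdft1, the squalene synthase, and Ebp, a sterol isomerase, fell by a like amount, with log2 fold changes of -0.49 and -0.50 (edgeR adjusted p = 7.56e-08 and 6.28e-06). Msmo1 and Nsdhl, which act with Hsd17b7 in removing methyl groups, were 1.29-fold and 1.3-fold lower (edgeR adjusted p = 1.95e-06 and 2.16e-08), so within that set of 3 demethylation enzymes the reductase fell most.

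Lss, which closes squalene epoxide into lanosterol, and Dhcr7, the reductase of a last step, had the smallest falls called in this stretch, with log2 fold changes of -0.16 and -0.21 (edgeR adjusted p = 1.31e-04 and 2.23e-04), and the ranges of Dhcr7 overlapped. Sc5d, a sterol desaturase, did not pass, and its 95% interval of -0.086 to 0.024 on the log2 scale is narrow. Tm7sf2, a sterol reductase, averaged 24.1 ± 1.39 CPM with TTX and 22.2 ± 1.47 CPM with vehicle (SD, n = 5 in each group), and its unadjusted 95% interval was 0.0014 to 0.23 (edgeR adjusted p = 0.0659). Its call changed with single libraries, as it passed without TTX replicate 1, vehicle replicate 3 or vehicle replicate 5 (edgeR adjusted p = 0.0454, 0.0422 and 0.0356), and it also passed with upper-quartile scaling, with library totals alone and with a replicate block (edgeR adjusted p = 0.0316, 0.0381 and 0.0372).

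**Figure D2:**
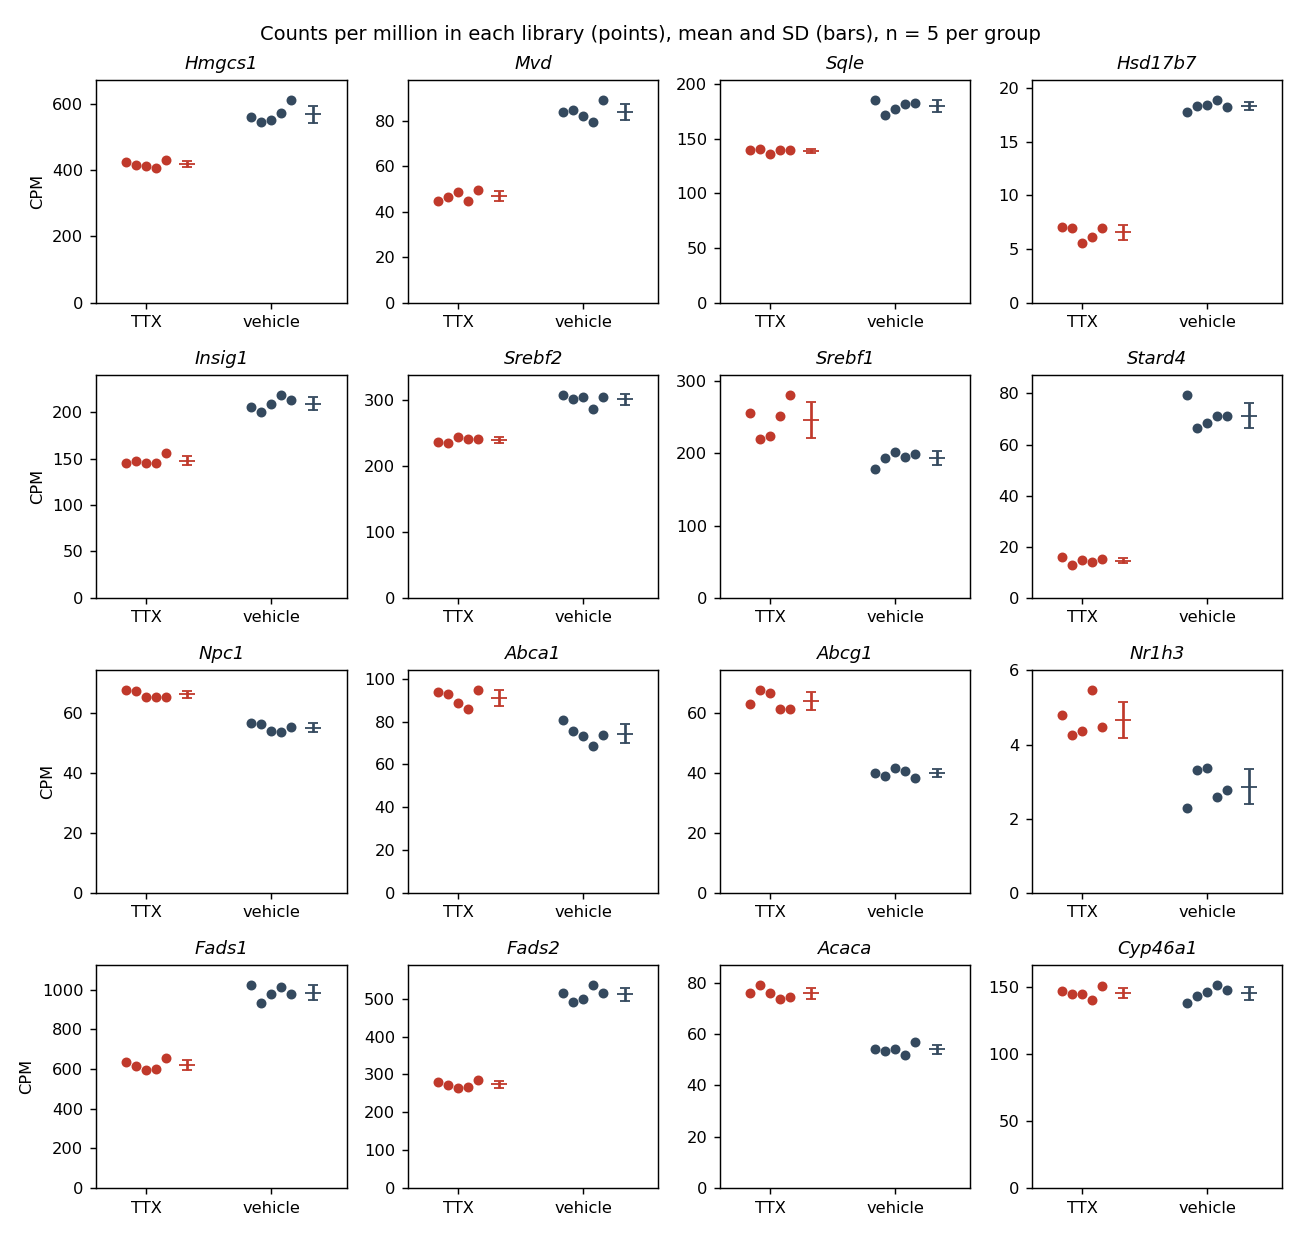
CPM (y axis, from 0) of 16 genes in each of the 5 TTX and 5 vehicle libraries (points, TTX left), with mean and SD beside them. The groups are apart in every panel but that of Cyp46a1, where both average 145 CPM, and the TTX points are higher for Srebf1, Npc1, Abca1, Abcg1, Nr1h3 and Acaca.

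Stretches of DNA before the start of these genes are shown for Hsd17b7, Mvd and Hmgcs1, which fell, for Mvk, the enzyme that rose, and for the exporter Abca1, which rose. They come from RefSeq and the GRCr8 build, while the authors' notes name rn6, and each is the 250 bases before the annotated start, 5′ to 3′ on the gene's strand. Capitals mark CCAAT boxes, the site of the factor NF-Y that works beside SREBP at many sterol genes, on either strand (CCAAT or its complement ATTGG).
Hsd17b7 (chr13:84722755-84723004, minus strand): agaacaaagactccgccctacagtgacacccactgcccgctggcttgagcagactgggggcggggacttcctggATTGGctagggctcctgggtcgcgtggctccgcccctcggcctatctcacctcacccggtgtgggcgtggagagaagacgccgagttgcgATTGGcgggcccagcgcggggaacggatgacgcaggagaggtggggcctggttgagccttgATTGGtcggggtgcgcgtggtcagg
Mvd (chr19:67414975-67415224, minus strand): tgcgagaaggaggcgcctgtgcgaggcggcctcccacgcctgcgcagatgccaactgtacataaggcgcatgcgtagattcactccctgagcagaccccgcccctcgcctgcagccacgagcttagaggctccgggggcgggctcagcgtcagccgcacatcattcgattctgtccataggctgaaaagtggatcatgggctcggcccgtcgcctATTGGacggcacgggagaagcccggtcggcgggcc
Hmgcs1 (chr2:53382054-53382303, plus strand): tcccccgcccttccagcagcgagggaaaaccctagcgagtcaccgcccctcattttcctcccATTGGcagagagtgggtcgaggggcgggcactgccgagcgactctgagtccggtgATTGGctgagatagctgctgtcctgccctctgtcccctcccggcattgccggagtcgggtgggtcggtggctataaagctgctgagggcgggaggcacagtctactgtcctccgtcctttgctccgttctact
Mvk (chr12:47819504-47819753, minus strand): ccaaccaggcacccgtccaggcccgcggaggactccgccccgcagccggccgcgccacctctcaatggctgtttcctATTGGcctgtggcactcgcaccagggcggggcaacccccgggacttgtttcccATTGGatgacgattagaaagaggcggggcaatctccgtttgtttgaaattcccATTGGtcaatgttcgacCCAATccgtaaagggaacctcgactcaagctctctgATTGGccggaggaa
Abca1 (chr5:72596474-72596723, minus strand): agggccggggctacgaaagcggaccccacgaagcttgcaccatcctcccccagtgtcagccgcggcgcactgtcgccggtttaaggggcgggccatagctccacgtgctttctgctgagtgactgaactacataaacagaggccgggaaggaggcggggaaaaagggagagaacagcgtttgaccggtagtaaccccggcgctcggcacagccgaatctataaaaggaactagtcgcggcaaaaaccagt

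Hsd17b7 has 3 such boxes, beginning 176, 86 and 25 bases before the start, Mvd has 1 at 35 and Hmgcs1 has 2 at 188 and 133. Mvk, which did not fall, has 5, and Abca1 has none. RefSeq promoters were matched for 33 of the 41 lipid genes, and 23 of these (69.7%) hold a CCAAT box, against 36.1% of all 27457 rat genes with a promoter. Those 27457 include genes outside the 14354 of the count table. The shares therefore do not set the lipid genes against genes expressed in these cultures, and draw no trait particular to them. The sterol regulatory element was searched as TCACNCCAC on both strands and was found in 0 of the 33, against 1.09% of the 27457, so these letters are not in these windows. GC boxes (GGGCGG, both strands) were in 27 of the 33, against 33.5% of the 27457, and the E-box CACGTG was in 4 (Sc5d, Scap, Insig1 and Abca1), against 6.18%. None of these motifs contains another. The matches describe sequence only, since binding was not measured.

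The genes that sense sterol split between the directions, and all 5 were called, where 70.5% of all genes tested were called. Of these 5, 60.0% were lower against 35.0% of all genes tested, and 40.0% higher against 35.4%. Srebf2, which encodes SREBP2, was at 236, 234, 244, 241 and 240.5 CPM in the TTX libraries, against 307, 301, 304, 287 and 304 CPM in the vehicle libraries. The groups did not overlap, and Srebf2 was 1.26-fold lower (log2 fold change -0.33 ± 0.0246 SE, edgeR adjusted p = 1.94e-08). Srebf1, which encodes SREBP1, the form that favours fatty acid genes, was at 256, 219.8, 225, 252 and 281 CPM in the TTX libraries, against 178, 194, 202, 195 and 199 CPM in the vehicle libraries. Its TTX libraries were spread widely but all lay above the vehicle libraries (log2 fold change 0.35 ± 0.0582 SE, edgeR adjusted p = 9.03e-05).

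Set against each other within a library, which needs no scaling between libraries, the log2 ratio of Srebf2 to Srebf1 counts was -0.11, 0.09, 0.12, -0.066 and -0.22 in the TTX libraries, against 0.79, 0.63, 0.59, 0.56 and 0.61 in the vehicle libraries. The TTX ratios were all lower (difference -0.67 on the log2 scale, exact permutation p = 0.00794, adjusted p = 0.00907, two-sided). The p of 0.00794 is the smallest that 5 against 5 libraries can give, and adjusted p-values of ratios are over the 8 ratios compared. Whether the counting used strand is not stated, and the Rai1 gene overlaps Srebf1 in the RefSeq annotation, so part of the Srebf1 counts could belong to it.

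Insig1, whose own transcription follows SREBP, was at 145, 148, 145, 146 and 157 CPM in the TTX libraries, against 206, 201, 209, 219 and 213 CPM in the vehicle libraries. Every TTX library was lower (log2 fold change -0.50 ± 0.0292 SE, edgeR adjusted p = 1.28e-09). Insig2, the other retention protein, was at 17.1, 16.2, 16.7, 16.2 and 16.1 CPM in the TTX libraries, against 29.6, 27.1, 26.1, 31.2 and 27.8 CPM in the vehicle libraries. Its fall was larger (log2 fold change -0.79 ± 0.050 SE, edgeR adjusted p = 3.48e-09) and passed the test against 1.5-fold (glmTreat adjusted p = 0.00123). The ratio of Insig1 to Insig2 counts was higher in all TTX libraries (difference 0.28 on the log2 scale, exact permutation p = 0.00794, adjusted p = 0.00907, two-sided), so the pair fell unequally. Scap, the escort that Insig proteins hold, rose slightly to 237 ± 5.02 CPM in TTX libraries, against 205 ± 6.85 CPM in vehicle libraries (SD, n = 5 in each group; log2 fold change 0.21 ± 0.0270 SE, edgeR adjusted p = 7.67e-06).

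Among genes that take up sterol or carry it inside the cell, 2 of 4 fell and 2 rose. Stard4, a small soluble sterol carrier, showed the largest change of the 41 genes and was at 16, 13.0, 14.9, 14.0 and 15.1 CPM in the TTX libraries, against 79.4, 66.4, 68.3, 71.0 and 71.3 CPM in the vehicle libraries. The highest TTX library, replicate 1, was far below the lowest vehicle library (log2 fold change -2.29 ± 0.0596 SE, edgeR adjusted p = 2.53e-13), and 152 of the 13088 genes tested had a lower log2 fold change. Per length, Stard4 was at 5.34 ± 0.409 FPKM with TTX and 25.9 ± 1.82 FPKM with vehicle (SD, n = 5 in each group). Mylip, a ubiquitin ligase that removes lipoprotein receptors and is a known target of liver X receptors, was lower by a small amount with overlapping ranges (log2 fold change -0.25 ± 0.0682 SE, edgeR adjusted p = 0.00512).

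Npc1, the membrane protein that lets cholesterol out of lysosomes, was at 67.7, 67.4, 65.5, 65.4 and 65.3 CPM in the TTX libraries, against 56.7, 56.5, 53.9, 53.7 and 55.2 CPM in the vehicle libraries. The groups did not overlap, and Npc1 was 1.2-fold higher (log2 fold change 0.26 ± 0.0281 SE, edgeR adjusted p = 9.58e-07). Npc2, its soluble partner in the lysosome, averaged 130.5 ± 7.18 CPM with TTX and 121 ± 5.08 CPM with vehicle (SD, n = 5 in each group) with overlapping ranges (log2 fold change 0.11 ± 0.0386 SE, edgeR adjusted p = 0.024). The call for Npc2 was lost without TTX replicate 4, TTX replicate 5, or vehicle replicate 2, 3 or 5 (edgeR adjusted p = 0.0637, 0.0645, 0.0643, 0.0726 and 0.0617). Their log2 ratio of counts was -0.89, -0.91, -0.92, -1.07 and -1.10 in the TTX libraries, against -1.12, -1.08, -1.12, -1.26 and -1.08 in the vehicle libraries. These overlapped (difference 0.16 on the log2 scale, exact permutation p = 0.0317, adjusted p = 0.0317, two-sided). Without TTX replicate 1, 2 or 3 or vehicle replicate 1, 3 or 4 the difference was 0.13 to 0.16 and the adjusted p 0.0635, and the cause of the lost call was not tested. Rmc1 overlaps Npc1 in the RefSeq annotation.

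The exporters Abca1 and Abcg1 moved against most of the synthesis genes. Of 5 genes of export and of the liver X receptors 4 rose and 1 (Nr1h2) fell, with a median of 0.29. That is 80.0% higher against 35.4% of all genes tested, and 20.0% lower against 35.0%. The direction was not shared by all exporters. Of the further exporters tested, Abca5 and Abca7 fell and Abca2 and Abcg4 rose (authors' log2 fold changes -0.78, -0.62, 0.12 and 0.30). Abcg1, a transporter that passes sterol to lipoprotein particles, was at 63.1, 67.7, 66.9, 61.5 and 61.5 CPM in the TTX libraries, against 40.1, 39.0, 41.6, 40.8 and 38.5 CPM in the vehicle libraries. Every TTX library was higher (log2 fold change 0.68 ± 0.0376 SE, edgeR adjusted p = 7.21e-10). Abcg1 had the lowest adjusted p of the 10 genes that rose and passed the test against 1.5-fold (glmTreat adjusted p = 0.0201), although not without TTX replicate 2 or 3 or vehicle replicate 2 or 5 (glmTreat adjusted p = 0.0742, 0.0665, 0.0561 and 0.0532). Abca1, which loads sterol and phospholipid onto apolipoproteins, was at 93.7, 92.9, 88.7, 85.9 and 94.7 CPM in the TTX libraries, against 80.6, 75.9, 73.1, 68.5 and 73.8 CPM in the vehicle libraries. All TTX libraries lay above all vehicle libraries (log2 fold change 0.29 ± 0.0410 SE, edgeR adjusted p = 1.51e-05).

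The log2 ratio of Abca1 to Abcg1 counts was 0.57, 0.46, 0.41, 0.48 and 0.62 in the TTX libraries, against 1.01, 0.96, 0.81, 0.75 and 0.94 in the vehicle libraries. It was lower with TTX without overlap (difference -0.39 on the log2 scale, exact permutation p = 0.00794, adjusted p = 0.00907, two-sided), so Abcg1 rose more than Abca1. Apoe, which encodes the apolipoprotein of brain lipoproteins and is one of the most abundant transcripts of these cultures, was at 3799, 3774, 3417, 3901 and 4062 CPM in the TTX libraries, against 3474, 3475, 3203, 3485 and 3548 CPM in the vehicle libraries. TTX replicate 3 lay within the vehicle range, and the rise was small (log2 fold change 0.14 ± 0.0395 SE, edgeR adjusted p = 0.0054). It averaged 3220.1 ± 173 FPKM with TTX and 2911 ± 102 FPKM with vehicle (SD, n = 5 in each group), above each of the other lipid genes with an FPKM value among the 41. Of 10 astrocyte markers 6 rose and 2 fell in these libraries, with a summed level of 15526 to 17439 CPM over the TTX libraries and 10263 to 12013 CPM over the vehicle libraries. Gfap carried most of that gap, and without it the sums overlapped, at 5937 to 7897 CPM over the TTX libraries and 5518 to 6205 CPM over the vehicle libraries. These sums still hold Aqp4, which varied widely between the TTX libraries, as given below. Sums without both genes were not made, so the overlap does not show that Gfap alone rose. The median log2 fold change of the 10 markers was 0.58, and beyond 1.5-fold 4 were higher and 0 lower. The part of these markers in the rise of Abca1, Abcg1 and Apoe was not tested.

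Nr1h3, which encodes liver X receptor alpha, was at 4.79, 4.27, 4.35, 5.47 and 4.47 CPM in the TTX libraries, against 2.30, 3.31, 3.37, 2.57 and 2.77 CPM in the vehicle libraries. It was a rare transcript, 120 to 408 counts per library, and higher in every TTX library (log2 fold change 0.70 ± 0.120 SE, edgeR adjusted p = 1.08e-04). Nr1h2, which encodes the beta form, was at 42.2, 42.9, 46.3, 42.9 and 41.4 CPM in the TTX libraries, against 57.8, 57.2, 61.1, 60.2 and 57.5 CPM in the vehicle libraries. The beta form fell without overlap (log2 fold change -0.45 ± 0.0362 SE, edgeR adjusted p = 4.89e-08), and the ratio of Nr1h3 to Nr1h2 counts was 2.24-fold higher with TTX (difference 1.16 on the log2 scale, exact permutation p = 0.00794, adjusted p = 0.00907, two-sided). Nr1h2 stayed the more abundant, at 22.1 ± 1.04 FPKM with TTX and 29.8 ± 0.980 FPKM with vehicle, where Nr1h3 was at 2.87 ± 0.298 FPKM with TTX and 1.74 ± 0.289 FPKM with vehicle (SD, n = 5 in each group). Acp2 overlaps Nr1h3 in the RefSeq annotation, so some Nr1h3 counts could belong to it.

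**Figure D3:**
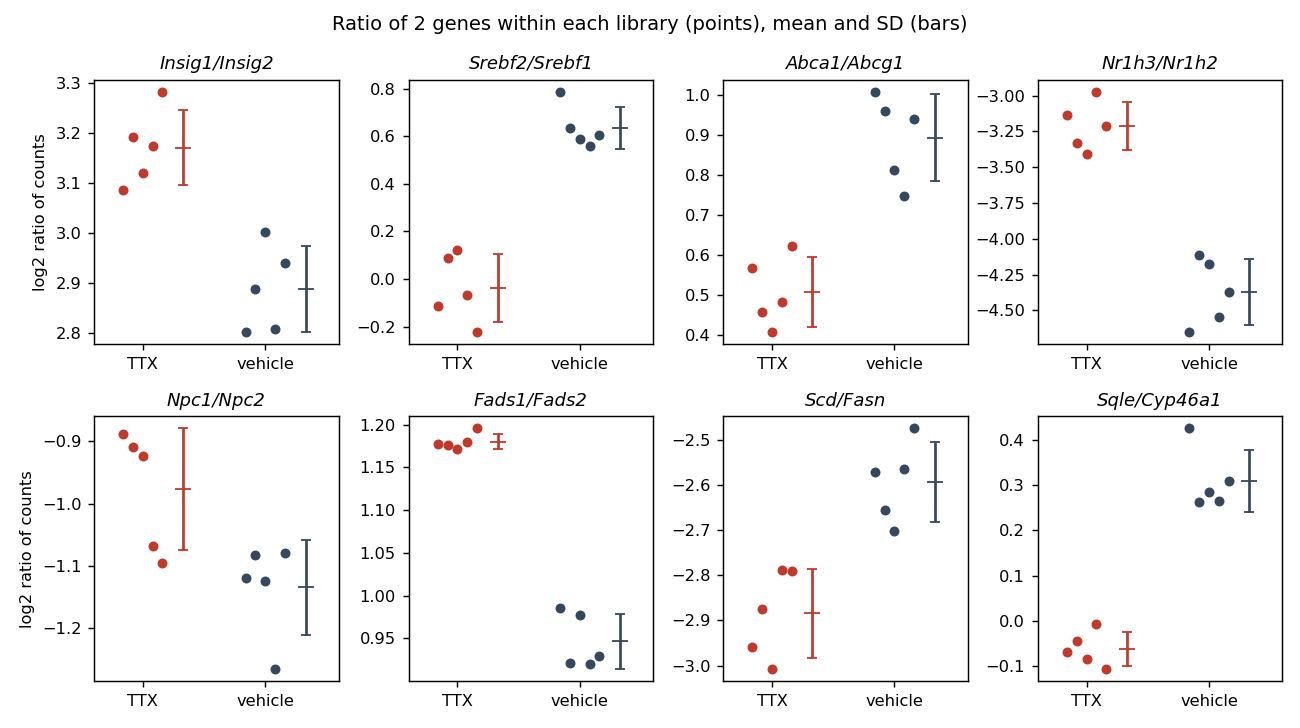
Log2 ratio of the counts of 2 genes within each library (y axis) for 8 pairs, with TTX points on the left, vehicle points on the right, and mean and SD beside them. The groups are apart in every panel but Npc1/Npc2, and the axes do not start at 0.

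Of the 2 genes of storage and turnover, Soat1 fell and Cyp46a1 did not pass. Cyp46a1, the neuronal enzyme that turns cholesterol into its hydroxylated exit form, was at 146, 145, 144, 140.2 and 150.1 CPM in the TTX libraries, against 138, 143, 146, 151 and 148 CPM in the vehicle libraries. The groups coincided (95% interval of the log2 fold change -0.059 to 0.059, edgeR adjusted p = 0.996). Soat1, which esterifies cholesterol for storage, was 1.16-fold lower (edgeR adjusted p = 8.61e-05). The log2 ratio of counts of Sqle, an enzyme of synthesis, to Cyp46a1 was -0.069, -0.046, -0.084, -0.0066 and -0.11 in the TTX libraries, against 0.43, 0.26, 0.28, 0.27 and 0.31 in the vehicle libraries. It fell in all TTX libraries (difference -0.37 on the log2 scale, exact permutation p = 0.00794, adjusted p = 0.00907, two-sided), so Sqle and Cyp46a1 changed unequally.

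In fatty acid synthesis and desaturation 5 of 7 genes fell, 1 (Acaca) rose and 1 (Acly) did not pass. That is 71.4% lower against 35.0% of all genes tested, and 14.3% higher against 35.4%. Among these 7 genes the decrease was largest in the desaturases Fads2, Fads1 and Scd. It was not shared by all genes of these families. Scd2, given below, fell less, and Fads3, from a further list, was higher, with an authors' log2 fold change of 0.26. Fads3 was singled out after its values were seen. Fads2, which starts the making of long polyunsaturated fatty acids, was at 281, 272, 265, 266 and 285 CPM in the TTX libraries, against 516, 492, 498, 535 and 515 CPM in the vehicle libraries. Every TTX library was far below the vehicle libraries (log2 fold change -0.90 ± 0.0301 SE, edgeR adjusted p = 3.04e-12). Fads1, the desaturase of a later step of the same route, was at 635, 614, 597, 602 and 654 CPM in the TTX libraries, against 1022, 931, 980.0, 1013 and 980.2 CPM in the vehicle libraries. It was 1.59-fold lower without overlap (log2 fold change -0.67 ± 0.0315 SE, edgeR adjusted p = 1.32e-10).

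Both desaturases were among the most abundant enzymes here, Fads2 at 166 ± 5.03 FPKM with TTX and 307 ± 9.68 FPKM with vehicle and Fads1 at 181 ± 6.38 FPKM with TTX and 285 ± 10.5 FPKM with vehicle (SD, n = 5 in each group). The log2 ratio of Fads1 to Fads2 counts was 1.18, 1.18, 1.17, 1.18 and 1.2 in the TTX libraries, against 0.99, 0.92, 0.98, 0.92 and 0.93 in the vehicle libraries. The TTX ratios were all higher and lay very close together (difference 0.23 on the log2 scale, exact permutation p = 0.00794, adjusted p = 0.00907, two-sided), so Fads2 fell by more than Fads1. Fads1 passed the test against 1.5-fold (glmTreat adjusted p = 0.0183, but 0.0760 with upper-quartile scaling), as did Fads2 (glmTreat adjusted p = 8.22e-08).

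Scd, the desaturase that makes oleic and palmitoleic acid, was at 47.7, 51.9, 44.5, 47.8 and 51.2 CPM in the TTX libraries, against 73.6, 68.6, 68.3, 69.2 and 78.1 CPM in the vehicle libraries. It was lower in every TTX library (log2 fold change -0.56 ± 0.0481 SE, edgeR adjusted p = 9.55e-08). Fasn, the synthase that builds palmitate, was at 371, 381, 358, 330.3 and 354 CPM in the TTX libraries, against 438, 432, 444, 409.7 and 434 CPM in the vehicle libraries. It fell less (log2 fold change -0.27 ± 0.0357 SE, edgeR adjusted p = 1.02e-05), and the log2 ratio of Scd to Fasn counts was lower with TTX by a difference of -0.29 on the log2 scale, exact permutation p = 0.00794, adjusted p = 0.00907 (two-sided). Scd2, a paralog of Scd with a similar sequence, was far more abundant, at 5693 ± 300.4 CPM with TTX and 6309 ± 169.9 CPM with vehicle (SD, n = 5 in each group; log2 fold change -0.15, edgeR adjusted p = 8.18e-04). Scd2 was singled out after its values were seen. How the counting divided reads that match both paralogs is not stated, so the size of the Scd change is uncertain.

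Acaca, which makes malonyl-CoA, the building block of Fasn, rose while its partner fell and was at 76.1, 78.9, 75.9, 73.5 and 74.5 CPM in the TTX libraries, against 54, 53.3, 54.3, 51.9 and 56.7 CPM in the vehicle libraries. The groups were well apart (log2 fold change 0.49 ± 0.0311 SE, edgeR adjusted p = 3.50e-09). C10h17orf78 overlaps Acaca in the RefSeq annotation, so some Acaca counts could belong to it. Acly, which supplies the acetyl-CoA for both routes, averaged 329.8 ± 4.63 CPM with TTX and 322 ± 6.04 CPM with vehicle (SD, n = 5 in each group) and did not pass (95% interval -0.015 to 0.08, edgeR adjusted p = 0.199), but did with upper-quartile scaling (edgeR adjusted p = 0.0373). Elovl6, which lengthens palmitate and is listed 2 times in the table with identical values, was 1.14-fold lower (edgeR adjusted p = 0.0011) and has no FPKM value. The 3 enzymes that lead from citrate to palmitate, Acly, Acaca and Fasn, therefore had 3 different outcomes.

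**Figure D4:**
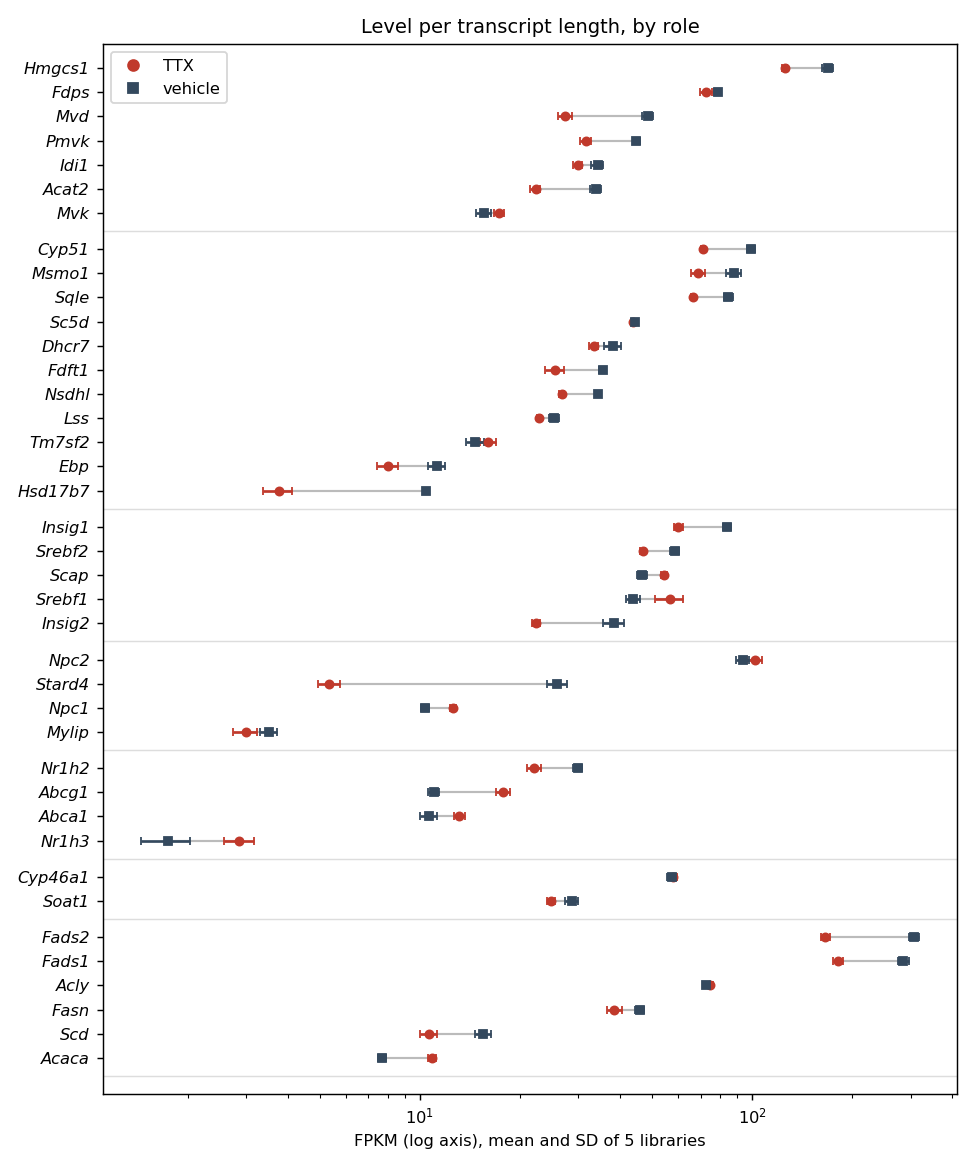
Mean FPKM with SD (x axis, log scale) of 39 of the genes with TTX (circles) and vehicle (squares), ordered within each role by their vehicle level, with lines between roles in the order of the text. Apoe, at 3220.1 FPKM with TTX and 2911 with vehicle, was left out of the plot, and Elovl6 has no FPKM. Stard4 and Hsd17b7 show the widest gaps, and Fads1 and Fads2 the highest levels.

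Per length, the order of the synthesis enzymes in vehicle libraries ran from Hmgcs1 (169 ± 6.76 FPKM), Cyp51 (99.3 ± 3.06), Msmo1 (88.1 ± 4.74) and Sqle (84.9 ± 2.45) down to Mvk (15.6 ± 0.817), Tm7sf2 (14.7 ± 0.937), Ebp (11.3 ± 0.664) and Hsd17b7 (10.5 ± 0.227; SD, n = 5). By mean and SD, the spreads overlapped between Msmo1 and Sqle, between Mvk and Tm7sf2, and between Ebp and Hsd17b7. The TTX libraries kept Hmgcs1 at the top (125 ± 2.35 FPKM) and Hsd17b7 at the bottom (3.76 ± 0.377 FPKM), with the gap to Ebp (8.03 ± 0.570 FPKM) now beyond the spread.

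A further 99 genes of the same pathways were listed for comparison, of which 91 were tested: 39 rose, 35 fell and 17 did not pass, with a median of 0.013. That is 38.5% lower against 35.0% of all genes tested, 42.9% higher against 35.4%, and 81.3% called against 70.5%. Of the rest, 7 are not analysed here and Cd36 was below the filter on low counts. Among 8 genes that draw on mevalonate for other products, 3 rose and 4 fell. Fntb and Pggt1b, subunits of enzymes that attach farnesyl or geranylgeranyl groups to proteins, were 1.65-fold and 1.42-fold higher, while Nus1, of the dolichol branch, was 1.27-fold lower (edgeR adjusted p = 2.93e-09, 5.46e-07 and 1.22e-08).

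Of 9 genes that cleave SREBP or degrade sterol-regulated proteins 6 rose, 1 (Erlin1) fell and 2 did not pass. That is 66.7% higher against 35.4% of all genes tested, and 11.1% lower against 35.0%. Rnf145, a ubiquitin ligase known in mouse to be induced by liver X receptors and to act on Scap, was 1.91-fold higher, at 114 ± 1.44 CPM with TTX and 59.5 ± 1.36 CPM with vehicle (SD, n = 5 in each group; edgeR adjusted p = 2.73e-13). Erlin1 and Erlin2, partner proteins of endoplasmic reticulum degradation, moved apart, with log2 fold changes of -0.38 and 0.37 (edgeR adjusted p = 7.62e-07 and 6.08e-08). Of 7 lipoprotein receptor, chaperone and lipase genes tested 4 rose (57.1%), 1 fell (14.3%) and 2 did not pass. Vldlr, a receptor for apolipoprotein E particles and reelin, was 2.29-fold lower, and Lrpap1, the chaperone of this receptor family, 2.02-fold higher (edgeR adjusted p = 4.79e-13 and 8.88e-14), so receptor and chaperone moved in opposite directions. Lpl, a lipoprotein lipase, was 1.14-fold higher with overlapping ranges (edgeR adjusted p = 0.005).

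Among 14 further sterol carriers 8 rose and 5 fell, and the largest changes were falls. That is 57.1% higher against 35.4% of all genes tested, and 35.7% lower against 35.0%. Stard5, a relative of Stard4, was at 3.95, 4.22, 3.76, 3.87 and 4.79 CPM in the TTX libraries, against 13.9, 13.5, 12.6, 11.7 and 13.9 CPM in the vehicle libraries. It was lower in every TTX library (log2 fold change -1.67 ± 0.0799 SE, edgeR adjusted p = 1.47e-10). Gramd1a and Gramd1b, which carry cholesterol from the plasma membrane to the endoplasmic reticulum, were both 2.22-fold lower, Gramd1b at 48.8 ± 1.99 CPM with TTX and 108 ± 1.98 CPM with vehicle (SD, n = 5 in each group; edgeR adjusted p = 2.61e-13 and 3.52e-13). Like Stard4, all 3 passed the test against 1.5-fold (glmTreat adjusted p = 7.99e-09, 1.12e-10 and 1.44e-10).

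Of 10 other genes of lipid export and transport, a list that includes the nuclear receptor genes Rxra and Rxrb, 5 rose and 3 fell. Lcat, which esterifies cholesterol on lipoprotein particles, was 3.06-fold higher, at 13.0 ± 0.893 CPM with TTX and 4.21 ± 0.890 CPM with vehicle, and Apod, a lipid-binding apolipoprotein, 1.95-fold higher, while Abca5 was 1.71-fold lower (edgeR adjusted p = 2.01e-08, 1.43e-06 and 1.96e-08). Of 8 enzymes of oxysterols and sterol esters 4 rose and 3 fell. Cyp7b1, an oxysterol hydroxylase, was 2.08-fold higher, at 132 ± 3.39 CPM with TTX and 63.2 ± 6.76 CPM with vehicle, and Hsd3b7, which acts after it in bile acid synthesis, 1.27-fold higher, whereas Cyp39a1, a further oxysterol hydroxylase, was 1.74-fold lower (edgeR adjusted p = 6.36e-10, 4.24e-05 and 3.34e-06).

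Of 20 other genes of fatty acid synthesis and elongation 10 fell and 5 rose, with a median of -0.19. That is 50% lower against 35.0% of all genes tested, 25% higher against 35.4%, and 75.0% called against 70.5%. Mlx, a partner of carbohydrate-responsive transcription factors, was 1.77-fold lower and Elovl7, an elongase, 2.07-fold lower, while Acacb, the mitochondrial relative of Acaca, was 1.65-fold higher (edgeR adjusted p = 1.46e-10, 7.44e-05 and 1.74e-04). In 15 genes of fatty acid activation, binding and storage 8 fell (53.3%) and 4 rose (26.7%). The binding proteins split: Fabp3 and Fabp5 were 2.90-fold and 1.53-fold lower, and Fabp7, the form of astrocytes and their precursors, 1.57-fold higher (edgeR adjusted p = 3.65e-13, 3.06e-09 and 7.16e-09).

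**Figure D5:**
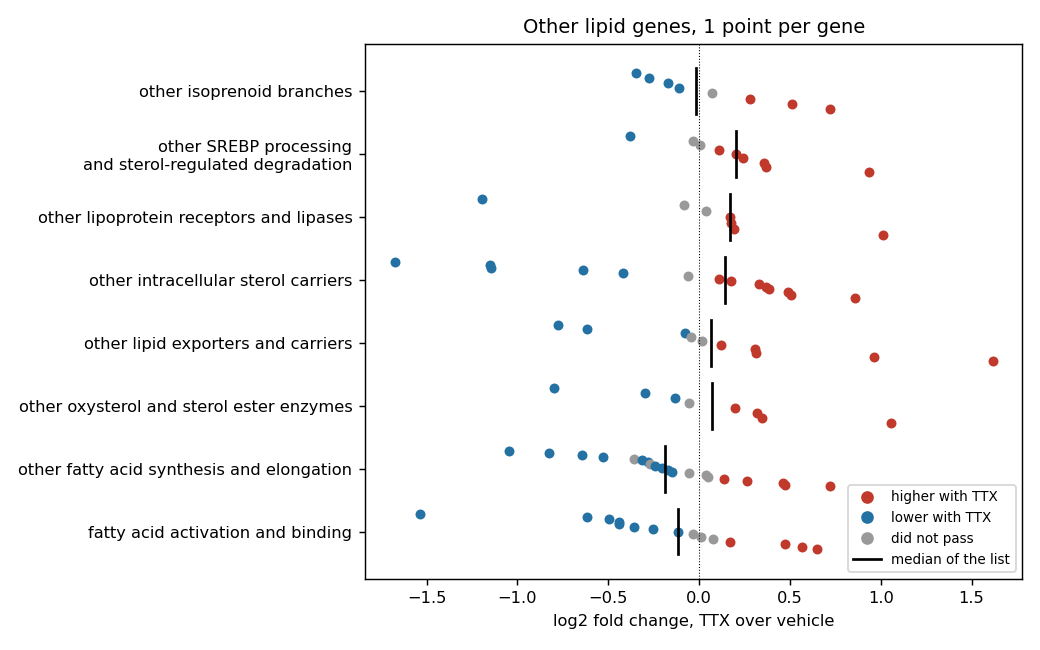
Log2 fold change (x axis, TTX over vehicle) of the 91 other lipid genes tested, by list (y axis). Each point is a gene, coloured by its call, and black bars are list medians, which lie between -0.19 and 0.20.

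Markers of the cell types in these cultures changed unevenly, and their counts stand beside 70.5% called, 35.4% higher and 35.0% lower in all genes tested. Among the astrocyte markers, 60.0% rose and 20.0% fell. Those that rose were Gfap, Gjb6, Gja1, Aldh1l1, S100b and Aldoc, with authors' log2 fold changes of 0.85, 1.40, 0.88, 0.74, 0.58 and 0.58. Gjb6 was rare, at 8 to 64 counts per library. Slc1a2, a glutamate transporter, and Sox9, an astrocyte transcription factor, were lower (log2 fold changes -0.24 and -0.27, edgeR adjusted p = 0.00107 and 7.30e-06), and Slc1a3, the related transporter, did not pass (log2 fold change 0.0015, edgeR adjusted p = 0.966). Aqp4, the water channel of astrocyte endfeet, was at 1795, 1793, 339.6, 272 and 328 CPM in the TTX libraries, against 1049, 1185, 1105, 1107 and 1219 CPM in the vehicle libraries, so the TTX libraries lay on both sides of the vehicle range. The astrocyte markers other than Gfap and Slc1a3 were named after their values were seen. Of 10 oligodendrocyte lineage markers 7 rose and 1 fell, with a summed level of 2002 to 2169 CPM over the TTX libraries and 1264 to 1555 CPM over the vehicle libraries. Neuron markers summed to 3776 to 3969 CPM over the TTX libraries and 3660.4 to 3983 CPM over the vehicle libraries, with 2 of 10 higher and 2 lower, or 40.0% called.

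All 8 markers of dividing cells fell, and 4 of 6 fibroblast and vessel markers tested fell, with 53.2 to 73.8 CPM over the TTX libraries and 80.4 to 99.8 CPM over the vehicle libraries. Among 8 microglia markers 2 rose and 1 fell (37.5% called), at 125 to 179 CPM over the TTX libraries and 151 to 166 CPM over the vehicle libraries. No tested marker was at 0 in any library. The part of these shifts in the lipid gene changes was not tested.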

How the data were processed

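Total RNA had integrity scores over 9, per the labels' protocols. HISAT2 2.1.0, StringTie, DESeq2 and rn6 are named in the submitters' processing notes. The counting tool and its strand setting are not given in the sources used here. A deposited table held raw counts and FPKM for each gene and library, with the authors' log2 fold changes and p-values (false discovery rates), per the file headers. Identical repeats were collapsed, leaving 14354 genes. Of the lipid genes, 5 (Idi1, Srebf1, Npc1, Nr1h3 and Acaca) overlap another protein-coding gene in RefSeq (GRCr8), which for Idi1 is Wdr37.

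The counts of 5 TTX and 5 vehicle libraries went into edgeR 4.0.16 under R 4.3.3 (TMM, filterByExpr with a minimum count of 10 and total of 15, glmQLFit, glmQLFTest, glmTreat at 1.5-fold, two-sided). Standard errors were taken from the fold change and its F statistic. The biological coefficient of variation was 7.59%. Depth was 52254261 counts or more per library. Ratios of raw counts within a library were compared by exact permutation over the 252 splits. The steps were tested on simulated data in which 200 of 13088 genes were changed. Of the changed genes, 64% were called at a 1.2-fold change, 80% at 1.5-fold, 94% at 2-fold and 100% at 4-fold. There were 8 false calls among the unchanged genes. No 2 libraries of a group agreed within sampling noise (chi-square divided by genes, 9.40 to 21.5). The authors' deposited table calls the same 37 lipid genes in the same directions.

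The genes, lists and tests were chosen with earlier results of these data known. Named genes are every lipid gene, the 3 called genes with the largest change in each further list (at least 1 CPM in a group) and the 2 most abundant markers of each marker list, of which Nefl, Gfap and Slc1a3 are named. Alternatives were RLE, upper-quartile and total-count scaling, omitting the low-count filter or setting it at 1 CPM in 5 libraries, a replicate block, DESeq2 1.42.0, leaving out each library, and for ratios a pseudocount of 1.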

Additional observations from a re-analysis of the deposited data

Results flagged for a closer look

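Within 146 sets of 5 same-group values, 8 had an end value set off by a gap that takes most of the range. Chance gives such a gap in about 1 of 20 sets. Acat2 was at 65.3 CPM in vehicle replicate 4, with the nearest library of that group at 70.0 CPM. Sqle was at 136 CPM in TTX replicate 3, with the nearest library of that group at 139 CPM. Srebf2 was at 287 CPM in vehicle replicate 4, with the nearest library of that group at 301 CPM. Insig1 was at 157 CPM in TTX replicate 5, with the nearest library of that group at 148 CPM. Apoe was at 3203 CPM in vehicle replicate 3, with the nearest library of that group at 3474 CPM. Gramd1b was at 112 CPM in vehicle replicate 3, with the nearest library of that group at 108 CPM. The log2 ratio of Npc1/Npc2 was -1.26 in vehicle replicate 4, with the nearest library of that group at -1.12. The log2 ratio of Sqle/Cyp46a1 was 0.43 in vehicle replicate 1, with the nearest library of that group at 0.31. These values did not come from 1 library, although vehicle replicate 4 supplied 3 of them. Apart from the Npc1/Npc2 ratio, the calls of the genes and ratios concerned did not change when any single library was left out.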

How the results depend on the processing

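Over 17 alternatives, 37 of the 41 lipid genes kept their direction and side of the threshold in each, and the exceptions were Tm7sf2, Npc2, Cyp46a1 and Acly. The 27 lower genes stayed at 27 in number under every alternative, and the higher ones numbered 9 to 12. Lipid genes higher beyond 1.5-fold numbered 0 to 1 on leaving out single libraries, and lower ones 5 with upper-quartile scaling, against 6. The fold change of Cyp46a1 lay near 0 and changed sign, at -1.01e-03 with RLE scaling, -1.13e-03 with DESeq2 and -0.021 to 0.015 without single libraries. Same-numbered libraries did not vary together (correlations of -0.058 to 0.011, and no library was closest to its own number), so the numbers are taken as names. With a replicate block the lipid genes called numbered 27 lower and 11 higher, and all genes 4563 lower and 4572 higher. For ratios the block leaves 32 sign patterns, of which the smallest p is 0.0625, so none could pass at adjusted p values of 0.0714 to 0.125, while the differences stayed at 0.28 for Insig1/Insig2, -0.67 for Srebf2/Srebf1, -0.39 for Abca1/Abcg1, 1.16 for Nr1h3/Nr1h2, 0.16 for Npc1/Npc2, 0.23 for Fads1/Fads2, -0.29 for Scd/Fasn and -0.37 for Sqle/Cyp46a1. Leaving out single libraries gave 0.13 to 0.19 for Npc1/Npc2, whose call was lost in 6 of 10 cases; the cause was not tested. Nr1h3, at 120 to 408 counts per library, had the largest standard error of the 41, and the part of depth in it was not tested.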
